A study of Mus musculus with 10 samples.

Results

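The 9 hairpins Mir143, Mir145a, Mir126a, Mir144, Mir451a, Mir1a-1, Mir1a-2, Mir133a-1 and Mir133a-2, known from blood vessels, blood and muscle, were followed through small RNA libraries of mouse embryoid bodies. They were chosen by name as miRNAs of these lineages and are 9 of the 1174 mouse miRNA hairpins searched. Mir143 and Mir145a stand for smooth muscle, Mir126a for endothelium, Mir144 and Mir451a for red cells, and Mir1a-1, Mir1a-2, Mir133a-1 and Mir133a-2 for heart and skeletal muscle.

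The libraries were made on Day 6 of differentiation from 3 male mESC lines, E14 (129/Ola background, no reporter), BG5 (a C57BL/6J, DBA and 129 mix with a Blimp1-GFP reporter) and SGET (a B6CBA and 129 mix with Stella-GFP and Esg1-tdTomato reporters). In every group, mEpiLCs were aggregated into embryoid bodies with BMP4, LIF, SCF, BMP8a or BMP8b and EGF, so the non-PGCLC cells saw the same factors as the mPGCLCs. By the study's methods, E14 mPGCLCs were sorted as Ssea1+ and Cd61+ and BG5 mPGCLCs as Ssea1+ and Blimp1-GFP+, whereas the labels name a Stella-GFP gate for every sample. The sorted mPGCLCs of E14 and BG5 were compared with the non-PGCLC cells of the same embryoid bodies, and non-PGCLC cells of SGET were added. Each of the 5 groups held 2 replicate libraries, 10 in all, and no label says whether the replicates came from separate cultures, so the p-values measure the spread between these libraries, which may be technical. Each line was a single cell line, and non-PGCLC cells are a mixture that the sort left undivided.

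A miRNA is cut from a hairpin as a short RNA of about the length of a small sequencing read, and bases 2 to 8 of it, the seed, choose its targets. Mir143 and Mir145a are transcribed together and are abundant in smooth muscle and other mesenchymal cells. Mir126a lies within Egfl7, a gene of endothelial cells, and tunes their response to VEGF. Mir144 and Mir451a are made together in maturing red cells, and Mir1a and Mir133a together in heart and skeletal muscle.

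The mature sequences below are those of the endothelial and red cell members, with the seed in capitals, bases 2 to 8. The first was also seen starting 1 base later, which moves the seed, and the last 2 are the red cell miRNAs that no library held. RefSeq sequences (GRCm38.p6) were found for 5 member arms, and none of these 5 shares its seed with another.
mmu-miR-126a-3p: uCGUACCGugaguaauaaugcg
Mir126a-3p starting 1 base later, as read: cGUACCGUgaguaauaaugcg
mmu-miR-144-3p: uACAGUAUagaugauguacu
mmu-miR-451a: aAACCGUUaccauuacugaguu

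Reads were assigned to the 5p or 3p arm of a hairpin, and levels are given in reads per 1000000 reads of the library (RPM). Mir1a-1 and Mir1a-2 give the same 3p reads, as do Mir133a-1 and Mir133a-2, so each pair was counted as 1 arm. Of the 14 arms of the members, 8 had a read in some library and 6 had none in any. The count test covered 561 arms with enough reads, 7 of them members. Library totals ran from 7421061 to 14444567 reads, of which 14.97 to 34.5% were miRNA reads. An exact miRNA sequence seldom had 3 to 9 reads (1.53 to 3.27% of such sequences), and the 10th percentile of reads per sequence, among those with 10 or more, was 24 to 183. That level corresponds to 2.84 to 18.7 RPM, and it was highest in SGET non-PGCLC replicate 2, which also held the fewest exact miRNA sequences, 886 against 1055 to 1603 elsewhere.

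The hairpins lie in 5 places in GRCm38. Mir143 is at chr18:61649196-61649258 on the minus strand, and Mir145a follows it at chr18:61647825-61647894. Mir126a is at chr2:26591357-26591429 on the plus strand and opposite Mir126b. It overlaps an exon annotated in some transcript of Egfl7, which does not show that the hairpin is exonic in the other transcripts. Mir144 at chr11:78073005-78073070 and Mir451a at chr11:78073170-78073241 are neighbours on the plus strand. Mir1a-1 (chr2:180389048-180389124) and Mir133a-2 (chr2:180398379-180398482) form a pair on the plus strand. Their copies Mir1a-2 (chr18:10785481-10785552) and Mir133a-1 (chr18:10782909-10782976) lie on the minus strand within introns of Mir133a-1hg and opposite an intron of Mib1.

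Mir143-3p was the most abundant member by far and the only one whose groups differed past the threshold. It was lower in BG5 mPGCLCs than in the BG5 non-PGCLC cells around them, whereas in E14 the sorted and surrounding cells held it at overlapping RPM. Ranked by its mean RPM over the 10 libraries it was 28th of the 763 arms with a read. It was read in every library, from 185.3 RPM to 6287 RPM, on 4 to 22 distinct sequences of 10 or more reads.

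The 2 BG5 non-PGCLC libraries held 6287 and 4604.5 RPM of Mir143-3p. The BG5 mPGCLC libraries held 447 and 185.3 RPM, both below every other library of the series in RPM. This rank changes per miRNA read. BG5 mPGCLC replicate 1 had 3691 Mir143-3p reads among 1792679 miRNA reads, and E14 mPGCLC replicate 1 had 4387 among 2850988. SGET non-PGCLC cells came second with 1779 and 1358 RPM. The E14 mPGCLC libraries, with 530.2 and 628 RPM, spanned the E14 non-PGCLC values of 611 and 550.0 RPM.

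As means ± SD (n = 2), Mir143-3p stood at 5446 ± 1190 RPM in BG5 non-PGCLC, 1569 ± 298 in SGET non-PGCLC, 581 ± 43.3 in E14 non-PGCLC, 579 ± 69.4 in E14 mPGCLC and 316 ± 185 in BG5 mPGCLC. Neighbours in this order were set apart by the count test in 1 case, BG5 against SGET. The SGET and E14 non-PGCLC cells did not differ past the threshold, the 2 E14 groups overlapped, and the 2 mPGCLC groups were not tested against each other.

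**Figure D1:**
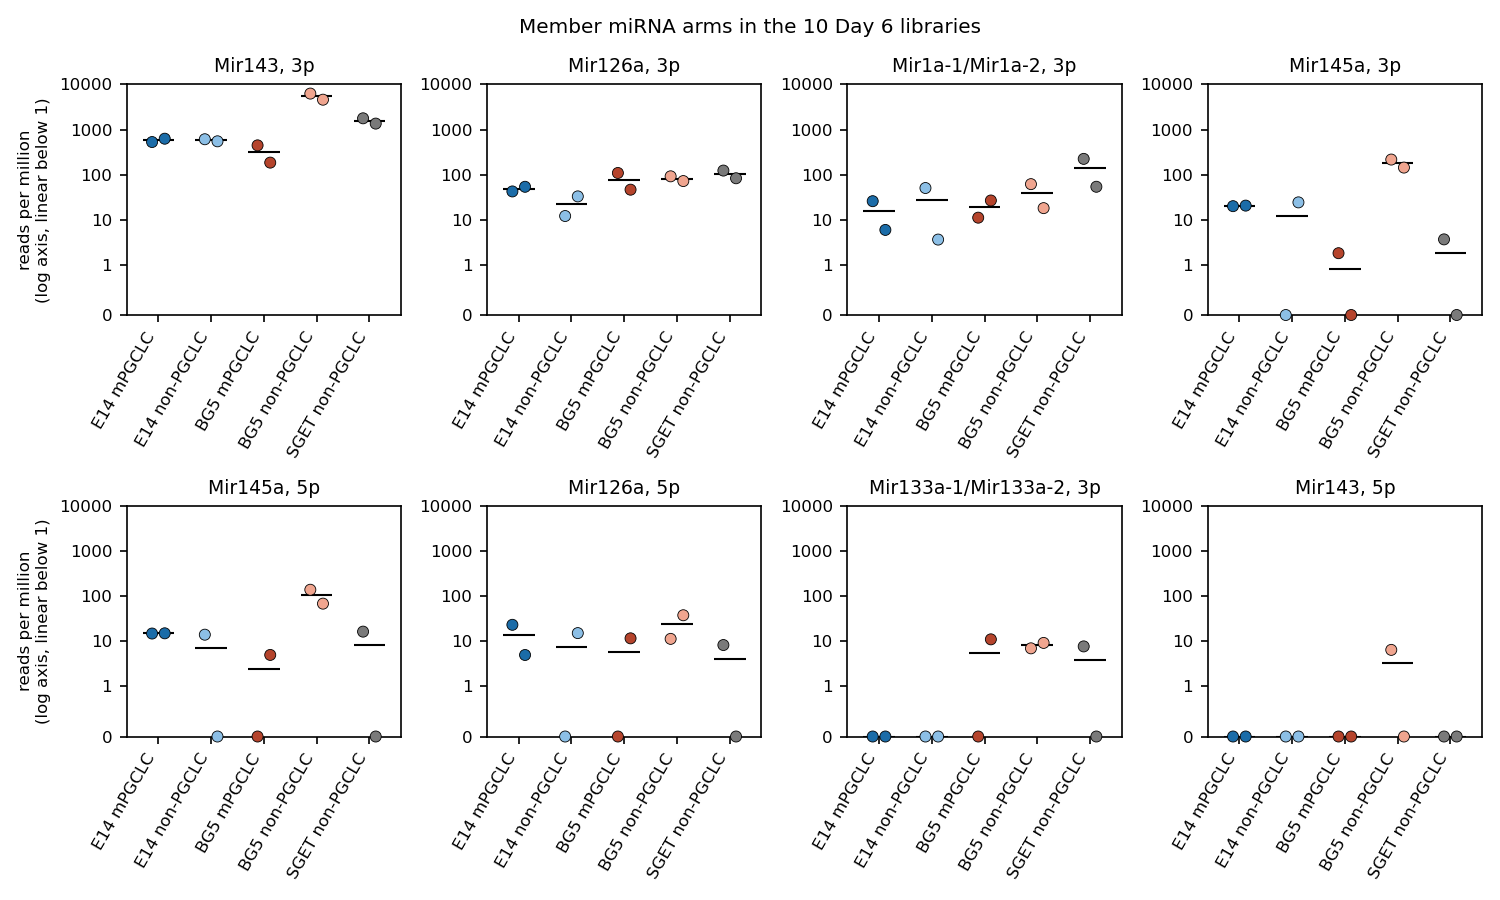
Level of each member arm with a read, in RPM on a log axis that is linear below 1, for the 5 groups along the x axis; points are libraries and bars are group means (n = 2). Mir143-3p was at 185.3 RPM or more in every library and highest in BG5 non-PGCLC, while 6 of the other 7 arms in the panels (all but Mir126a-3p) were under 20 RPM in at least 4 libraries.

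In the test of the BG5 line, Mir143-3p was 11.1-fold lower in mPGCLCs than in non-PGCLC cells (log2 -3.48, SE 0.34, edgeR quasi-likelihood adjusted p = 7.04e-07). In bulk libraries such as these, fewer cells of a type and less RNA per cell cannot be told apart. Mir143-3p was the only member called among the 7 tested, where 14.3% of all 561 arms were called. In E14 the log2 difference was -0.19 (SE 0.31, 95% interval -0.84 to 0.46, adjusted p = 0.973), and no member was called by edgeR or DESeq2 or had an unadjusted p under 0.05. Of all arms, 2.85% were called there. The interval for E14 does not reach the BG5 difference.

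The difference between the lines was tested directly. The BG5 change in Mir143-3p minus the E14 change was -3.29 on the log2 scale (SE 0.44, adjusted p = 5.88e-05), and 5.7% of all arms were called in this test. Averaged over both lines, mPGCLCs were lower by a log2 value of -1.83 (SE 0.22, adjusted p = 8.59e-06), with 14.8% of all arms called. Mir143-3p was the only member called in either test.

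Among the non-PGCLC cells, Mir143-3p was higher in BG5 than in E14 (log2 2.19, SE 0.32, adjusted p = 8.16e-05), where 15.3% of all arms were called. It was lower in SGET than in BG5 (log2 -1.24, SE 0.31, adjusted p = 0.00722), with 18.7% of all arms called. This call was lost without SGET non-PGCLC replicate 2 (log2 -0.73, adjusted p = 0.348) and when only these 2 groups were fitted (-0.97, adjusted p = 0.186). The SGET value was higher than the E14 value by a log2 of 0.95 (SE 0.31, adjusted p = 0.115), which did not pass, in a test that called 4.63% of all arms. It passed in 5 of the 21 other settings, among them DESeq2 (adjusted p = 0.0200) and the fit without SGET non-PGCLC replicate 2 (log2 1.36, adjusted p = 0.0206). The 5 comparisons that use a non-PGCLC group of BG5 share its 2 libraries and are not independent of each other.

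The scaling moved these sizes. With total reads in place of TMM factors the median log2 difference of all arms shifted by -0.69 in BG5, -0.81 in the test between lines, 1.03 between BG5 and E14 non-PGCLC cells and -0.56 between SGET and BG5. The Mir143-3p differences were then -4.11, -4.10, 3.23 and -1.80, and all 4 stayed past the threshold. In E14 the shift was 0.12 and the Mir143-3p difference was -0.0033.

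**Figure D2:**
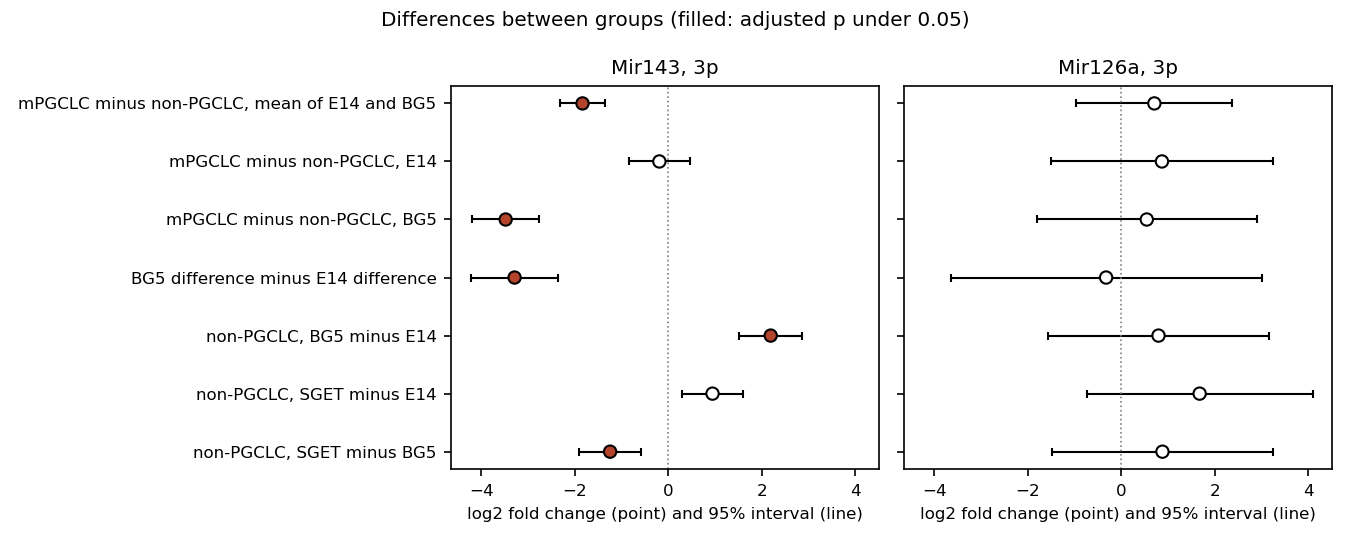
Log2 fold changes of Mir143-3p and Mir126a-3p (x axis) in 7 comparisons (y axis), with 95% intervals from the edgeR fit as lines and filled points where the adjusted p was under 0.05. Mir143-3p passed in 5 comparisons and Mir126a-3p in none, with intervals several log2 units wide.

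Other mesenchymal miRNAs did not follow Mir143-3p in E14. The summed level of the Mir199a, Mir199b and Mir214 hairpins, which are known from mesenchyme and were all read, was 19.0 and 23.6 RPM in E14 mPGCLCs and 1060 to 1242 RPM in E14 non-PGCLC cells. In BG5 it was 116 to 144 RPM in mPGCLCs and 13165 to 22031 RPM in non-PGCLC cells, and in SGET non-PGCLC cells it was 425 to 427 RPM. This sum was thus low in the sorted cells of both lines, while Mir143-3p was low in those of BG5. In E14 mPGCLCs, Mir143-3p was at 530.2 and 628 RPM beside a mesenchymal sum of at most 23.6 RPM. In SGET non-PGCLC cells the sum was below that of E14 non-PGCLC cells, the opposite order to Mir143-3p.

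Markers of pluripotent and germ cells, the Mir290 to Mir295 and Mir302/367 clusters (12 of 13 hairpins read), summed to 22224 and 28862 RPM in BG5 mPGCLCs and to 2808 and 3768 RPM in BG5 non-PGCLC cells. In E14 they summed to 55783 and 59996 RPM in mPGCLCs and to 27072 and 36595 RPM in non-PGCLC cells, and in SGET non-PGCLC cells to 43770 and 50868 RPM. Epithelial markers, the Mir200 family with all 5 hairpins read, were at 3172 and 4337 RPM in BG5 mPGCLCs against 1386 and 1399 RPM in BG5 non-PGCLC cells. In E14 they were at 1901 and 1984 RPM in mPGCLCs against 1114 and 1133 RPM in non-PGCLC cells, and in SGET non-PGCLC cells, above both E14 mPGCLC libraries, at 2693 and 3031 RPM. Both sums were thus higher in mPGCLCs than in the non-PGCLC cells of the same line in E14 and BG5, opposite to Mir143-3p in BG5 and beside overlapping Mir143-3p RPM in E14. Their part in the Mir143-3p difference was not tested.

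**Figure D3:**
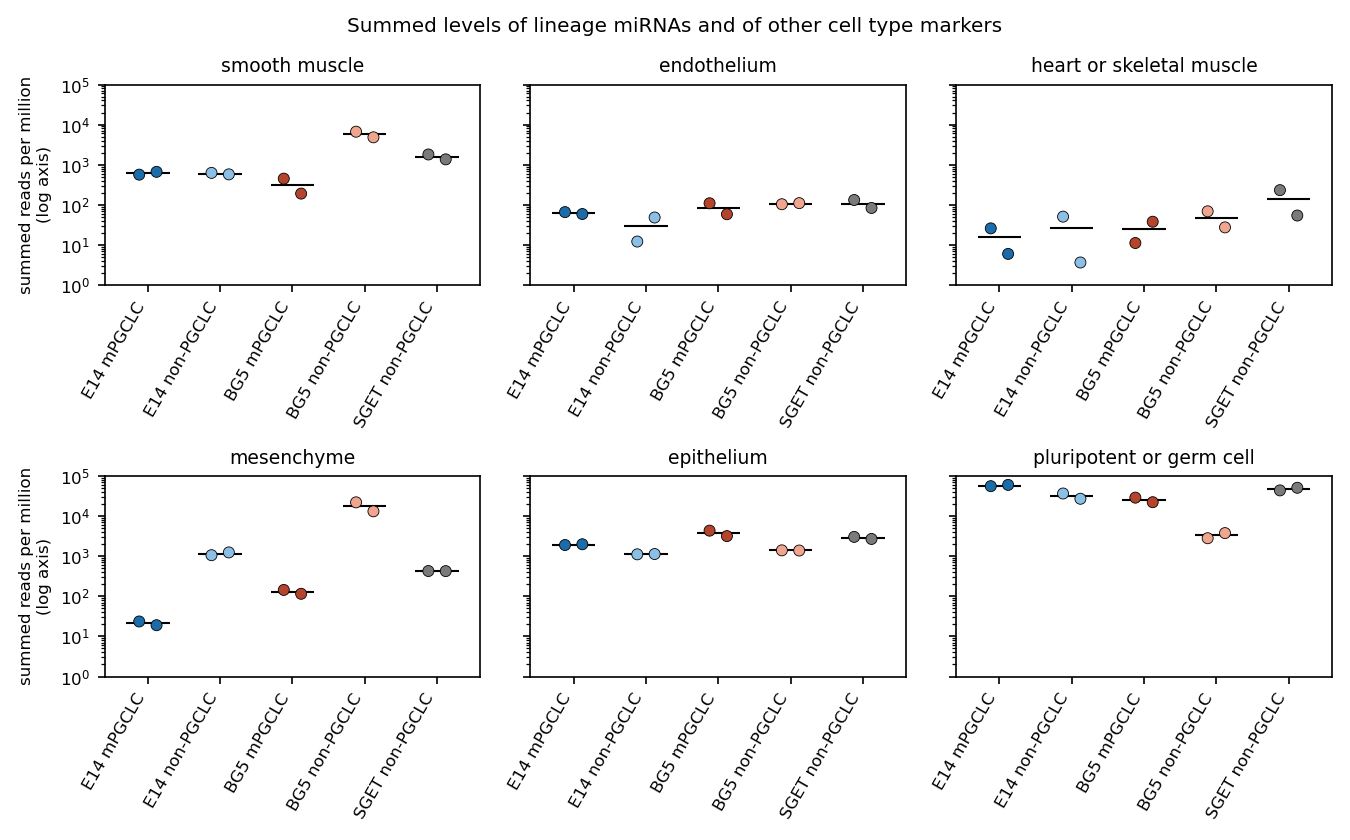
Summed level of each miRNA list, in RPM on a log axis, for the 5 groups along the x axis; points are libraries and bars are group means (n = 2). The mesenchyme list was lower in mPGCLCs than in non-PGCLC cells of both E14 and BG5, whereas the smooth muscle list was lower in BG5 mPGCLCs and overlapped between the E14 groups.

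The 3′ ends of Mir143-3p also differed between libraries. From 92.0 to 100% of its reads in a library began at the same hairpin base, base 40, so the seed was almost constant. A large part ended in a U that the hairpin does not encode, an addition made to many miRNAs after they are cut. This added U was on 64.0 and 46.02% of Mir143-3p reads in the BG5 mPGCLC libraries, more than in any other library. It was on 28.6 and 27.5% of reads in BG5 non-PGCLC, 29.4 and 37.8% in E14 mPGCLC, 23.3 and 26.3% in E14 non-PGCLC, and 37.0 and 28.5% in SGET non-PGCLC. The mPGCLC libraries of a line thus lay above its non-PGCLC libraries in both lines, without overlap. With 2 libraries on each side an exact two-sided permutation test cannot go below p = 0.333, and none was run.

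The forms changed by unequal amounts. Reads of Mir143-3p that match the hairpin fell from 4361 and 3293 RPM in BG5 non-PGCLC cells to 144.6 and 98.1 RPM in BG5 mPGCLCs. Reads with the added U stood at 1797 and 1266 RPM in the former and at 286 and 85.3 RPM in the latter. When only matching reads were counted, the BG5 difference was larger (log2 -4.40, adjusted p = 6.46e-09) and the E14 difference was -0.50 (adjusted p = 0.639).

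**Figure D4:**
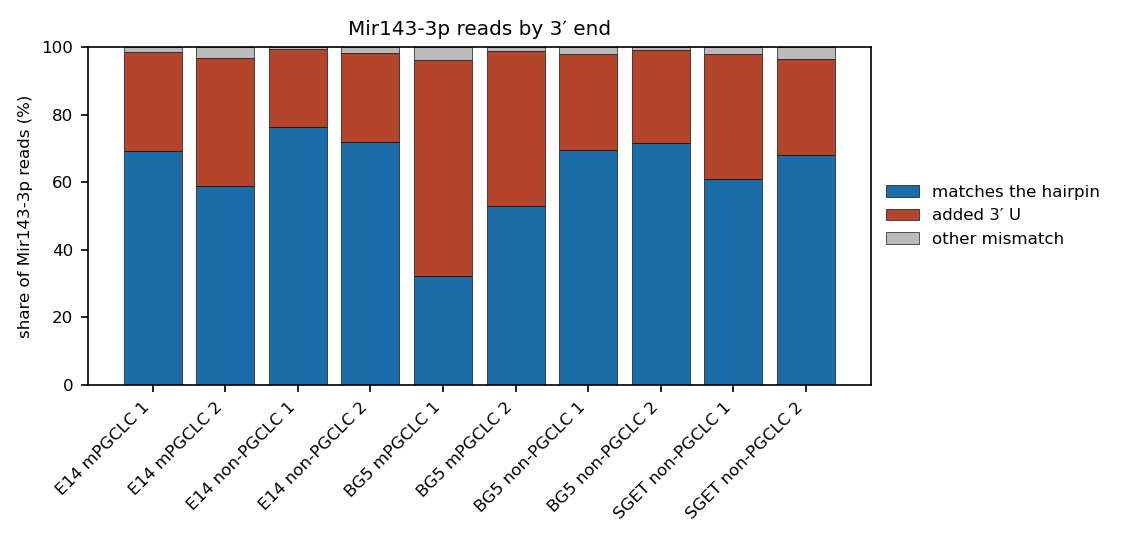
Share of Mir143-3p reads (y axis, percent) that match the hairpin, end in an added U or carry another mismatch, in each library (x axis). The added U was on 46.02 and 64.0% of reads in the BG5 mPGCLC libraries and on 23.3 to 37.8% in the other 8.

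The 5p arm of Mir143, the strand that is usually degraded, was read in BG5 non-PGCLC replicate 1 alone, with 61 reads (6.45 RPM). It was too sparse for the count test.

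Mir145a, the cluster partner of Mir143, was far scarcer, but it too was highest in BG5 non-PGCLC cells. Its 3p arm stood at 217 and 143.9 RPM in the BG5 non-PGCLC libraries. It was at 1.82 and 0 RPM in BG5 mPGCLC, 20.1 and 20.6 in E14 mPGCLC, 0 and 24.3 in E14 non-PGCLC, and 3.68 and 0 in SGET non-PGCLC. The 2 BG5 non-PGCLC libraries lay above all others, and 3 libraries had no read.

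In the main test the Mir145a-3p difference within BG5 was large but did not pass (log2 -7.14, SE 3.21, adjusted p = 0.204). The unadjusted p was 0.0404. It passed with DESeq2 (log2 -7.34, adjusted p = 0.0201), without a low-count filter (adjusted p = 0.0454) and in 7 of the 10 fits that left out a library, so the call depended on the setting. Among these fits, the one without BG5 mPGCLC replicate 1 leaves that group with its library at 0 RPM. The size fitted there (log2 -13.3) is no measure of the difference. Between SGET and BG5 non-PGCLC cells the adjusted p was 0.233. It passed in 4 other settings, among them reads divided by the 10th percentile of reads per sequence (adjusted p = 0.00223). Another of the 4, without SGET non-PGCLC replicate 1 (log2 -13.2), likewise leaves a group with its library at 0 RPM. Between BG5 and E14 non-PGCLC cells the adjusted p was 0.534, and in the test between lines it was 0.392. Both passed without E14 non-PGCLC replicate 2 (adjusted p = 0.0255 and 0.00935), which leaves that group with its library at 0 RPM, so the fitted sizes there (log2 13.3 and -18.2) are no measure of the difference. The test between lines also passed without SGET non-PGCLC replicate 1 (adjusted p = 0.0494) and with reads divided by the 10th percentile of reads per sequence (adjusted p = 0.00788).

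The 5p arm, which is the main product of Mir145a in most tissues, gave fewer reads than the 3p arm in 6 of the 9 libraries that had either. It stood at 139.0 and 68.4 RPM in BG5 non-PGCLC, again the 2 highest values. Elsewhere it was at 14.9 and 15.04 RPM in E14 mPGCLC, 14.01 and 0 in E14 non-PGCLC, 0 and 4.99 in BG5 mPGCLC, and 16.4 and 0 in SGET non-PGCLC. Its lowest adjusted p over the 7 comparisons was 0.5002. It passed in BG5 when reads were divided by the 10th percentile of reads per sequence of each library (log2 -3.70, adjusted p = 0.0196), a setting chosen after seeing the data. The 14.01 RPM in E14 non-PGCLC rested on 1 sequence.

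Mir126a-3p, the endothelial member, was read in all 10 libraries at 12.1 to 123 RPM. It was at 42.5 and 53.9 RPM in E14 mPGCLC and 12.1 and 33.0 in E14 non-PGCLC, at 109.2 and 46.5 in BG5 mPGCLC and 92.0 and 72.3 in BG5 non-PGCLC, and at 123 and 83.4 in SGET non-PGCLC. The E14 groups did not overlap, while the BG5 mPGCLC libraries lay on both sides of the BG5 non-PGCLC ones. The lowest value, in E14 non-PGCLC replicate 1, rested on 90 reads of 1 sequence that differs from the hairpin.

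No comparison of Mir126a-3p passed. The log2 difference between mPGCLCs and non-PGCLC cells was 0.87 in E14 (SE 1.12, 95% interval -1.50 to 3.24, adjusted p = 0.893). In BG5 it was 0.54 (SE 1.11, interval -1.81 to 2.90, adjusted p = 0.924), and its sign turned with total-read scaling (-0.077) and with matching reads only (-0.048). Averaged over the lines it was 0.71 (SE 0.79, interval -0.96 to 2.38, adjusted p = 0.705), and the lines differed by -0.32 (interval -3.65 to 3.001, adjusted p = 0.9998).

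Between the non-PGCLC groups, Mir126a-3p differed by a log2 of 0.80 from E14 to BG5 (adjusted p = 0.717), 1.68 from E14 to SGET (interval -0.74 to 4.09, adjusted p = 0.514) and 0.88 from BG5 to SGET (adjusted p = 0.636). Each of the 3 intervals spans 0 and reaches a log2 of over 3 on its upper side.

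The start of Mir126a-3p varied between the lines. The form printed above as mmu-miR-126a-3p starts at chr2:26591402-26591423, hairpin base 46, and the other form starts 1 base later. The later start made up 49.2 and 41.6% of Mir126a-3p reads in BG5 mPGCLC, and 40.5 and 44.4% in BG5 non-PGCLC. In E14 it was on 13.6 and 16.8% of reads in mPGCLC and on none of the 90 and 426 reads in non-PGCLC. SGET non-PGCLC cells had 30.2 and 15.7%. All 4 BG5 libraries thus lay above the 6 others, and the seed of the later form is GUACCGU in place of CGUACCG. Each share rests on 1 to 5 sequences of 10 or more reads per library, so it describes few sequences, and no test was run.

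The 5p arm of Mir126a was seen in 7 of 10 libraries at up to 37.8 RPM, the highest in BG5 non-PGCLC replicate 2. Both libraries had it in E14 mPGCLC (23.2 and 4.97 RPM) and in BG5 non-PGCLC (11.3 and 37.8 RPM), and 1 library was at 0 in each of the 3 other groups. Its lowest adjusted p was 0.774.

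The red cell miRNAs were not detected. Mir144-5p, Mir144-3p and both arms of Mir451a had 0 reads in each of the 10 libraries, also among reads of 15 to 17 nt and of 27 to 43 nt. A count of 0 allows up to 3 reads, which is 0.208 to 0.404 RPM depending on the library, for counting error only. The 10th percentile of reads per sequence, at 2.84 to 18.7 RPM, lies above this limit. Mir451a is cut without Dicer, a route used by few other miRNAs, and Mir486-5p, another red cell miRNA that shares its reads with Mir3107, was read in all 10 libraries at 4.40 to 106 RPM.

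The muscle arm shared by Mir1a-1 and Mir1a-2 was read in all 10 libraries, but most of its reads did not match the mouse hairpins. Of 5657 reads, 1593 matched exactly. At the 20th base of the miRNA, 1690 reads held the hairpin's own base and 3891 (68.8%) held the same other base, 3529 of these with a further mismatch at base 22. Yet another base was on 76 reads, 70 of them in E14 mPGCLC replicate 1. The main form with both mismatches was found in none of the 1174 hairpins. Where these reads came from was not tested, so the RPM of this arm and the muscle sums are not shown to come from the mouse hairpins alone.

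The reads with the hairpin's own base at base 20 stood at 0 RPM in both E14 mPGCLC libraries, 10.5 and 0.0775 in E14 non-PGCLC, 11.2 and 23.8 in BG5 mPGCLC, 38.5 and 0.138 in BG5 non-PGCLC, and 26.7 and 53.7 in SGET non-PGCLC. The reads with the common other base, the variant, stood at 17.4 and 5.97 RPM in E14 mPGCLC, 40.02 and 3.57 in E14 non-PGCLC, 0 and 3.03 in BG5 mPGCLC, 23.3 and 17.9 in BG5 non-PGCLC, and 197 and 0.205 in SGET non-PGCLC. Reads with yet another base added 8.46 RPM in E14 mPGCLC replicate 1 and at most 0.208 RPM elsewhere. The variant thus ran from 0 to 197 RPM, and in the non-PGCLC cells of E14 and SGET 1 library held nearly all of it. The highest total of this arm, 224 RPM in SGET non-PGCLC replicate 1, was 88.0% variant.

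No comparison of the Mir1a-1 and Mir1a-2 3p arm passed in the main test, with a lowest adjusted p of 0.337. With reads divided by the 10th percentile of reads per sequence, it was higher in SGET than in BG5 non-PGCLC cells (log2 2.57, adjusted p = 0.0227). With exact matches only the lowest was 0.3995. Exact reads were present in 7 libraries and rested on 1 to 3 sequences of 10 or more reads in 6 of them. The 5p arm had no read in any library.

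**Figure D5:**
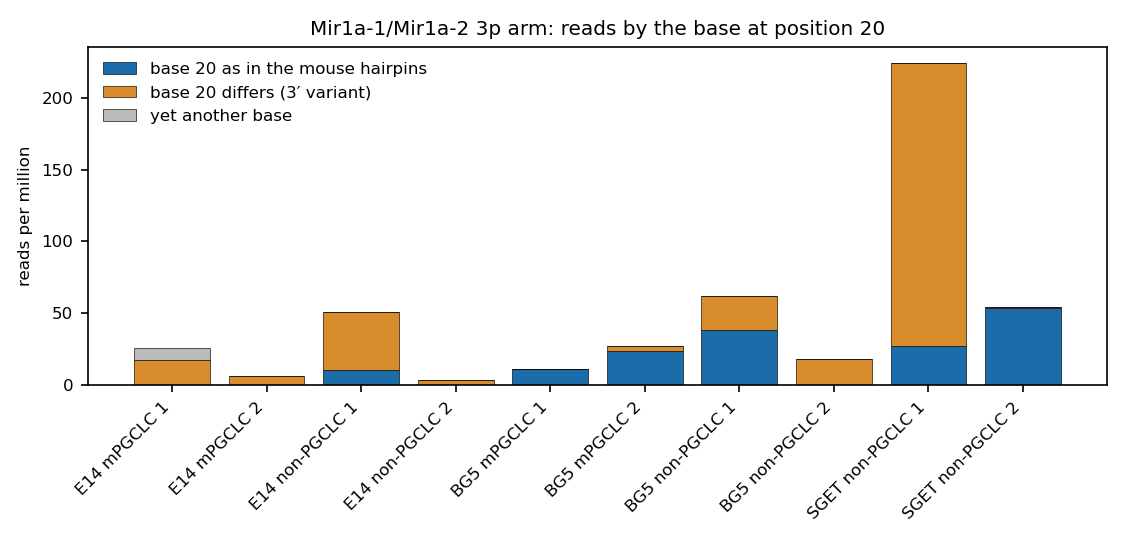
Level, in RPM, of the 3p arm shared by Mir1a-1 and Mir1a-2 (y axis, linear) in each library (x axis), split by whether base 20 is that of the mouse hairpins, the common other base or yet another base. The tallest bar, SGET non-PGCLC replicate 1 at 224 RPM, was 88.0% variant, and BG5 mPGCLC replicate 1 and SGET non-PGCLC replicate 2 were almost without it.

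Mir133a-1 and Mir133a-2, the partners of Mir1a in muscle, gave 3p reads in 4 libraries. These were both BG5 non-PGCLC libraries (6.98 and 9.21 RPM), BG5 mPGCLC replicate 2 (11.0 RPM) and SGET non-PGCLC replicate 1 (7.71 RPM), each on 1 or 2 sequences of 10 or more reads. All 4 E14 libraries were at 0. No comparison passed (lowest adjusted p = 0.385), and the 5p arm had no read.

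The lineage sums put these members in order within the libraries. Smooth muscle miRNAs came to 190.3 to 6649 RPM, endothelial to 12.1 to 132 RPM, heart or skeletal muscle to 3.64 to 232 RPM, and red cell to 0. The smooth muscle sum was the highest of the 4 in all 10 libraries through Mir143-3p, since the Mir145a arms together were below the Mir126a arms in 7 of the 10. The muscle sum includes the variant Mir1a reads. With exact matches only, its mean over 2 libraries went from 15.9 to 0 RPM in E14 mPGCLC, 27.2 to 5.26 in E14 non-PGCLC, 24.5 to 20.4 in BG5 mPGCLC, 48.1 to 27.1 in BG5 non-PGCLC and 143.05 to 40.9 in SGET non-PGCLC.

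The miRNAs whose pattern was closest to each leading member were read from the correlation of log2(RPM + 1) over the 10 libraries, a description over points that share groups. For Mir143-3p they were Mir673-3p (Pearson r = 0.89), Mir322-3p (0.86) and the Mirlet7c-1/Mirlet7c-2-5p arm (0.86). Mir673-3p was sparse, at 14.3 and 19.0 RPM in BG5 non-PGCLC, 6.11 in SGET non-PGCLC replicate 1 and 0 in every other library. Mir322-3p was at 1946 and 1356 RPM in BG5 non-PGCLC and at 26.1 to 171 RPM in the other 8 libraries. For Mir126a-3p they were the merged Mir466b 3p arm (0.89), Mir16-1/Mir16-2-5p (0.87) and Mir324-3p (0.86). For the Mir1a 3p arm they were Mir676-3p (0.83), the merged Mir466f 3p arm (0.79) and Mir6922-5p (0.72), the last of which was read only in BG5 non-PGCLC replicate 1 (3.81 RPM) and SGET non-PGCLC replicate 1 (12.6 RPM).

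A further list of 22 hairpin names, of which 11 had reads, held relatives of the members together with miRNAs of red and white blood cells and Mir221, Mir222, Mir363 and Mir490, so its counts do not describe the members' lineages alone. Of their arms, 15 were tested. In BG5, 3 were higher in mPGCLCs and none lower, beside 48 higher and 32 lower of all 561 arms (14.3%), and the median log2 difference of the list was 1.23 against -0.04 for all arms. In E14 none of the 15 passed with edgeR, 1 had an unadjusted p under 0.05 and DESeq2 called 2. Averaged over the lines 3 were higher, where 14.8% of all arms were called, and 1 passed in the test between lines, where 5.7% were. Among non-PGCLC cells, 2 were lower in BG5 than in E14 (15.3% of all arms called), 3 were higher in SGET than in BG5 (18.7%), and none passed between SGET and E14, where 1 had an unadjusted p under 0.05 and DESeq2 called 2. The 3 higher in BG5 mPGCLCs were Mir363-3p (log2 2.89, adjusted p = 0.00212), Mir363-5p (log2 3.13, adjusted p = 0.00483) and Mir150-5p (adjusted p = 0.00425). Mir363 belongs to the Mir106a cluster and Mir150 to mature lymphocytes. Mir150-5p was at 25.9 and 6.55 RPM in BG5 mPGCLC and at 0 in both BG5 non-PGCLC libraries, while it was at 55.0 and 72.6 RPM in E14 non-PGCLC.

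Of the close relatives of the members, Mir206-3p, a skeletal muscle miRNA with the Mir1a seed, was read in E14 non-PGCLC replicate 2 alone (3.10 RPM). Mir499-5p, made from a myosin gene of the heart, was read in 6 libraries, at 53.5 and 36.4 RPM in SGET non-PGCLC and 27.9 and 8.82 RPM in E14 mPGCLC, with no comparison passing. Markers of white blood cells (Mir142, Mir150 and Mir223) summed to 88.1 and 117 RPM in E14 mPGCLC, 60.5 and 74.5 in E14 non-PGCLC, 19.5 and 44.8 in BG5 mPGCLC, 7.19 and 82.5 in BG5 non-PGCLC, and 106 and 131 in SGET non-PGCLC. Markers of neural cells summed to 193 and 231 RPM in E14 mPGCLC and to 243 and 150 RPM in E14 non-PGCLC, which overlap. They were at 310 and 229 RPM in BG5 mPGCLC, above the 42.6 and 53.9 RPM of BG5 non-PGCLC, and at 117 and 0 RPM in SGET non-PGCLC. The liver marker Mir122 summed to 0 to 59.1 RPM.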

How the data were processed

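Each of the 10 deposited files lists the distinct sequences of a library with their raw count, made by the authors. As the methods and the labels describe it, small RNA (under 200 nt) of sorted cells was ligated to adapters with random end bases, and reads of 15 nt or longer were trimmed with cutadapt 3.2 and mapped with STAR 2.5.3a to GRCm38. The random bases were not used to remove PCR copies.

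Reads of 18 to 26 nt were assigned to GENCODE vM21 hairpins with the first 18 bases exact and up to 2 mismatches after. Arm counts were tested with edgeR 4.0.16 (quasi-likelihood, TMM, filterByExpr, all 5 groups in 1 fit, Benjamini-Hochberg adjusted p under 0.05) in 7 comparisons. The spread of an arm rests on 5 residual degrees of freedom, and edgeR moderates it with the spread of the other arms. The p-values and intervals of the members therefore used 16.4 degrees of freedom, or 14.4 for the Mir133a 3p arm. DESeq2 1.42.0 and other scalings, filters, read lengths and left-out libraries were alternatives. In a simulated mean comparison of 541 arms, 35.5% of 200 arms changed 8-fold were recovered at the real spread, so a change of that size could be missed. With the dispersion (the spread between libraries) set to 0.1, 99.5% were recovered. Recovery was not split by the level of an arm. Replicate libraries correlated at 0.77 to 0.83.

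All member arms are given. The arms most like them are the 3 arms of other hairpins with the highest Pearson r. The members, the lists and the tests were chosen with earlier results of these data known.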

Additional observations from a re-analysis of the deposited data

Results flagged for a closer look

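The change of Mir143-3p between mPGCLCs and non-PGCLC cells differed between the lines, by -3.29 on the log2 scale in the direct test (95% interval -4.23 to -2.35). Both BG5 mPGCLC libraries were below both BG5 non-PGCLC libraries, and the E14 groups overlapped in RPM of all Mir143-3p reads.

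Reads outside the length range counted as miRNA were found in member hairpins in few libraries. BG5 non-PGCLC replicate 1 held 106 reads of 27 nt or longer on the 5p arm of Mir143, beside 61 in the counted range, and SGET non-PGCLC replicate 1 held 12 such reads on the 5p arm of Mir126a. Each number is above the 3 reads that a count of 0 allows for counting error alone. The 12 reads are 1 sequence, as are 105 of the 106, and the 10th percentile of reads per sequence in these libraries was 46 and 50.3, so the 12 reads lie below it. The other libraries held none on the Mir143 arm.

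Reads on the strand opposite the Mir1a hairpins numbered 111 in E14 mPGCLC replicate 2 and 69 in BG5 non-PGCLC replicate 1, and no other library had any. Mir1b is annotated opposite Mir1a-2, and Mir1b-5p was read in these 2 libraries alone, at 14.2 and 7.30 RPM.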

How the results depend on the processing

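Of the 5 calls of Mir143-3p, 4 held in all 21 other settings, the exception being SGET against BG5 non-PGCLC, which was lost in 2 settings (log2 -0.97 with only the groups compared, -0.73 without SGET non-PGCLC replicate 2). The cause was not tested. SGET against E14 passed under total-read scaling (1.43), DESeq2 (1.06), without BG5 non-PGCLC replicate 1 (1.04), without SGET non-PGCLC replicate 2 (1.36) and with reads divided by the 10th percentile of reads per sequence (0.90), a setting chosen after seeing the data, as were the read length and exact-match settings for calls. The Mir126a-3p value turned in BG5 under total-read scaling (-0.077) and with exact matches (-0.048), and in the test between lines without E14 non-PGCLC replicate 1 (0.26, and from -1.32 to 0.26 over all left-out libraries).

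In the order mean of lines, E14, BG5, between lines, BG5 against E14, SGET against E14 and SGET against BG5, all arms called numbered 83, 16, 80, 32, 86, 26 and 105. DESeq2 called 147, 55, 121, 78, 149, 77 and 175. Dividing reads by copies gave 127, 29, 118, 58, 144, 46 and 166. E14 gave 8 with total-read scaling, 8 with only its groups fitted and 30 without a filter, and SGET against E14 gave 9 with only its groups. The replicate block gave 91, 26, 87, 40, 96, 35 and 115, and it changed no member call. Same-numbered replicates showed no shared deviation (r -0.11 to 0.05 over 561 arms), which cannot show that the samples were unpaired. Leaving out a library gave 75 to 112, 14 to 36, 71 to 103, 33 to 57, 82 to 115, 29 to 55 and 99 to 137.

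Members called numbered 1, 0, 1, 1, 1, 0 and 1. Dividing by copies gave 2, 0, 3, 2, 1, 1 and 3. In BG5, DESeq2 and the fit without a filter each gave 2. SGET against E14 gave 1 with total-read scaling and with DESeq2, and SGET against BG5 gave 0 with only its groups. Leaving out a library gave 1 to 2 in BG5, 1 to 2 between lines, 1 to 2 for BG5 against E14, 0 to 1 for SGET against E14 and 0 to 2 for SGET against BG5. Of the further members, Mir145a-3p passed in 18 of 84 fits over 4 comparisons. With reads divided by copies it also passed averaged over the lines (log2 -3.74, adjusted p = 0.00699), as did Mir145a-5p in BG5 (-3.70, adjusted p = 0.0196) and the Mir1a 3p arm for SGET against BG5 (2.57, adjusted p = 0.0227).

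Lineage sums are given for E14 mPGCLC, E14 non-PGCLC, BG5 mPGCLC, BG5 non-PGCLC and SGET non-PGCLC. With miRNA reads in place of all reads as the denominator, smooth muscle came to 1871, 2965, 1669, 21399 and 5103, endothelium to 189, 161, 446, 414 and 349, and heart or skeletal muscle to 46.97, 120.2, 152, 169 and 472. With exact matches, smooth muscle came to 397, 449.6, 125, 4054 and 1013 RPM, endothelium in BG5 non-PGCLC to 99.2, and heart or skeletal muscle to 0, 5.26, 20.4, 27.1 and 40.9. With each distinct sequence counted 1 time and its share scaled like RPM, the sums came to 147, 99.04, 75.8, 355 and 153 for smooth muscle, and to 48.5 in E14 mPGCLC, 30.3 in BG5 mPGCLC, 32.8 in BG5 non-PGCLC and 37.5 in SGET non-PGCLC for endothelium. The read lengths moved no sum beyond its SD. A sum without 1 of its 2 libraries is the value of the other, and it was over 1.5 times above or below the mean of both for heart or skeletal muscle in every group (5.97 to 25.9, 3.64 to 50.7, 11.2 to 37.8, 27.3 to 68.8 and 54.01 to 232), endothelium in E14 non-PGCLC (12.1 to 48.2) and smooth muscle in BG5 mPGCLC (190.3 to 449).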
